A study of Arabidopsis thaliana with 6 samples.

Results

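GSTF6 (AT1G02930) and GSTF7 (AT1G02920) are neighbouring genes for glutathione transferases of the phi class, and both had higher values in roots of the hb13 mutant of Arabidopsis thaliana than in wild-type roots. They make up 2 of 708 entries of the authors' deposited table and were chosen by locus, with their change in that table already known. Wild-type and hb13 mutant seedlings of the Col-0 ecotype were grown on standard medium, and RNA was taken from roots 5 days after germination, with 3 libraries of each genotype. The labels call the tissue whole root, while the protocol has the roots cut at about 0.5 cm from the tip. HB13 encodes a homeodomain-leucine zipper transcription factor of class I. The labels state neither the allele nor how many plants went into a library. The question behind the comparison is how the root transcriptome changes when HB13 is mutated.

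Glutathione transferases join the tripeptide glutathione to reactive or electrophilic compounds, which makes these compounds more soluble and marks them for transport into the vacuole. The phi class is one of the large plant classes, and its members are often induced by pathogens, salicylic acid, oxidative stress and foreign chemicals. GSTF6 is known for joining glutathione to an indole intermediate during synthesis of camalexin, the main phytoalexin of Arabidopsis. The annotation gives GSTF7 the terms defence response to bacterium and response to salt stress, and it gives both genes glutathione transferase activity and glutathione binding.

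The genes lie head to tail on the minus strand of chromosome 1. In the TAIR10.1 assembly GSTF6 spans chr1:661088-662475 and GSTF7 spans chr1:658578-659980, with 1107 bases and 0 annotated genes between them. GSTF7 and GSTF6 open an array of 4 phi-class genes on that strand, followed by GSTF5 and GSTF4. Each of the pair has 3 exons in its main annotated transcript. These transcripts are 1186 bases long for GSTF6, with 627 coding, and 1213 bases for GSTF7, with 630 coding. GSTF6 has 2 annotated transcripts and GSTF7 has 1, and the 2 transcripts of GSTF6 share their coding sequence. No annotated gene overlaps either locus. The table itself has no coordinates, and the submitters' processing notes name TAIR10, so the positions describe the RefSeq annotation of TAIR10.1.

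The coding part of the first exon shows how alike the copies are. It lies at chr1:662042-662191 in GSTF6 and chr1:659556-659705 in GSTF7, both on the minus strand of TAIR10.1 (sequence from the RefSeq genome), and capitals mark the bases that differ between the genes.
GSTF6: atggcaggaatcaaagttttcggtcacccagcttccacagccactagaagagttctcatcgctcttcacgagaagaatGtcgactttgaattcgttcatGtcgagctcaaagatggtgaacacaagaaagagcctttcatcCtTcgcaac
GSTF7: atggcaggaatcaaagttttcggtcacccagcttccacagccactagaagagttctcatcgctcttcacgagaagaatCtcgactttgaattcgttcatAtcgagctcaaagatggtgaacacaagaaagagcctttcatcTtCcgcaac
Of these 150 bases 4 differed, an identity of 97.3%. Identity was 95.9% in coding exon 2 and 93.0% in coding exon 3, and 94.3% over the whole coding sequence, counting gaps as differences. The coding alignment held 33 mismatches and 1 gap of 3 bases. Of the mismatches, 11 fell at the first position of a codon, 4 at codon position 2 and 18 at codon position 3, and 26 of the 209 codons of GSTF6 carried at least 1. Outside the coding sequence the copies were less alike, with 78.5% identity in intron 1, 69.1% in intron 2, 73.4% in the 5′ UTR and 61.5% in the 3′ UTR.

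The longest run that both transcripts share without a difference is 116 bases in coding exon 3, and it is shown because a read that falls inside it cannot be placed in one gene. It lies at chr1:661565-661680 in GSTF6 and chr1:659088-659203 in GSTF7, on the minus strand of TAIR10.1.
Shared run: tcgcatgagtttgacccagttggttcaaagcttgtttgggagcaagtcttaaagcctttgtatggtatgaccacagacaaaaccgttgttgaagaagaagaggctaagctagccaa
The labels give single-end reads of 100 bases. Of the 1087 stretches of 100 bases in the GSTF6 transcript, 17 occurred exactly in GSTF7 and 151 (13.9%) occurred there with at most 2 mismatches. For the 1114 stretches of the GSTF7 transcript the counts were also 17 and 151 (13.6%). With at most 2 mismatches, 0 stretches of either transcript occurred anywhere else in the genome or in the annotated transcripts. Reads from most positions of either transcript therefore differ from the other gene by 3 bases or more. How the authors' processing placed reads that match both genes is not given in the sources used here, so each gene's own value is uncertain to that extent.

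**Figure D1:**
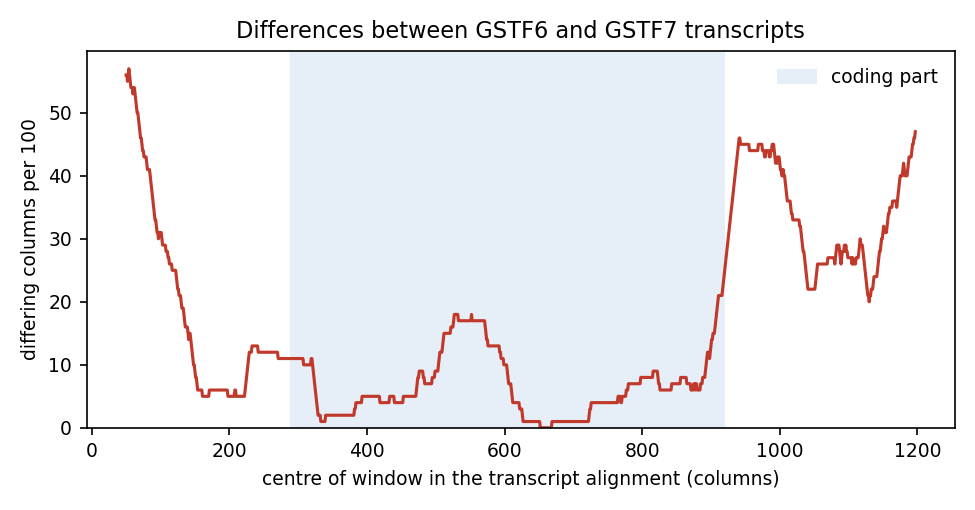
Number of differing alignment columns per window of 100 columns (y axis) along the alignment of the GSTF6 and GSTF7 transcripts (x axis, window centre), with gaps counted as differences and the coding part shaded. Windows inside the coding part held 0 to 18 differences with a median of 5, and the windows with most differences, up to 57, lay outside it.

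Per the authors' deposited table, the GSTF6 expression value was 9.48 in wild-type roots and 19.5 in hb13 roots, 2.06-fold higher, with a log2 ratio of 1.04. For GSTF7 the values were 2.65 and 6.32 per the authors' deposited table, 2.39-fold higher, with a log2 ratio of 1.25. Both genes were thus higher in the mutant by slightly more than a factor of 2. Each had the smallest q-value of the authors' deposited table, 0.00246, and 342 entries (48.3%) shared that value. The members were chosen on this contrast, so these values describe them and are given with no test. The table holds 1 value per genotype and none per library, so the spread between the 3 libraries cannot be given, nor whether single libraries of the genotypes overlap. Read depth is unknown, and the scale of the values is not named in the table. In RNA from whole or cut roots, more cells of a type that expresses these genes and more RNA per cell cannot be told apart.

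GSTF6 had the higher value of the pair in both genotypes, 3.58 times that of GSTF7 in the wild type and 3.09 times in hb13, from the authors' deposited table. Whether that scale corrects for transcript length is not stated, but the GSTF7 transcript is only 2.28% longer. GSTF7 made up 21.8% of the summed value of the pair in the wild type and 24.5% in hb13, by the values in the authors' deposited table. Between the 2 genes the log2 ratios of hb13 over wild type, per the authors' deposited table, differed by 0.21, and without values per library this difference could not be tested. If each shared read was counted once, a sum over both loci depends little on its division between transcripts of such close length. Whether this was so is not known, and shared reads that were dropped or counted at both loci would change the sum. That sum was 12.1 in the wild type and 25.8 in hb13 per the authors' deposited table, 2.13-fold higher, with a log2 ratio of 1.09.

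**Figure D2:**
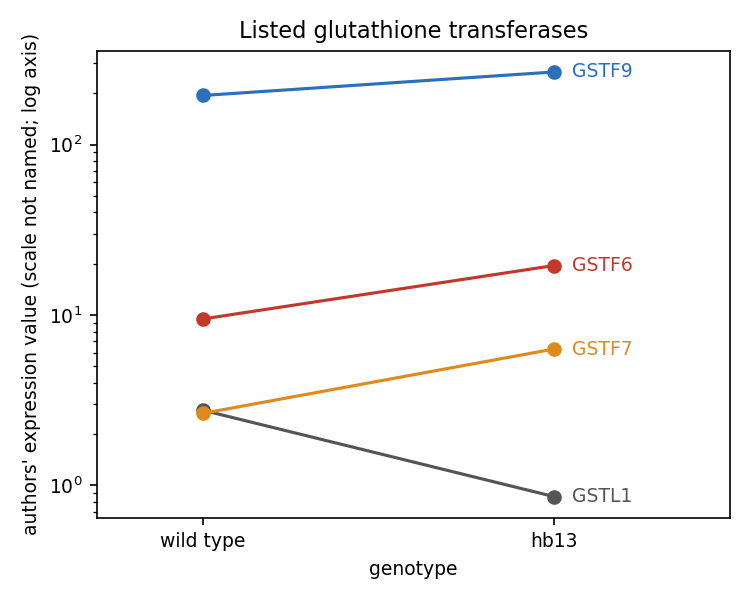
Expression value in the authors' deposited table (y axis, log scale, scale not named) in wild type and hb13 (x axis) for the 4 listed glutathione transferases, each point 1 value per genotype with no error available. GSTF6 and GSTF7 went from 9.48 to 19.5 and from 2.65 to 6.32, GSTF9 had values of 194 and 267, and GSTL1 was lower in hb13.

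By the mean of both genotypes, the pair stood below the median level of all listed entries. By that measure GSTF6 (14.5) ranked 400th of 708 in the authors' deposited table, with 308 entries (43.5%) below it. GSTF7 (4.48) ranked 587th in the authors' deposited table, with 121 entries (17.1%) below it. The median entry had a mean value of 19.1 in the authors' deposited table, above both genes. Both genes ranked higher among the mutant values than among the wild-type values, which restates the change already known when they were chosen. In hb13 alone GSTF6, at 19.5, was just above the median entry, at 19.4, in the authors' deposited table. GSTF6 moved from rank 461 to 352 and GSTF7 from rank 647 to 523 in the authors' deposited table.

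By size of change the order of the pair was the other way round. When 706 entries of the authors' deposited table were ordered by absolute log2 ratio, GSTF7 ranked 84th and GSTF6 149th. Among the 394 entries (55.6%) that were higher in hb13, beside 44.4% that were lower, GSTF7 ranked 48th and GSTF6 80th in the authors' deposited table. These higher entries had a median log2 ratio of 0.68 and a 90th percentile of 1.30 per the authors' deposited table, and both genes lay between these values. Both genes belong to the 88 entries (12.4%) that were at least doubled in hb13 in the authors' deposited table, with GSTF6 close to that limit. With a pseudocount of 1 GSTF6 no longer reached a doubling (log2 ratio 0.97), and after subtraction of the median log2 ratio of all entries neither gene did (0.59 for GSTF6 and 0.80 for GSTF7). Low values generally need a larger change to be listed, so each gene was also set beside entries within a factor of 2 of its own mean value. Of 255 such entries around GSTF6, 37 changed more, on the absolute log2 scale, per the authors' deposited table, and the median was 0.68. Of 194 around GSTF7, 34 changed more per the authors' deposited table, and the median was 0.88.

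**Figure D3:**
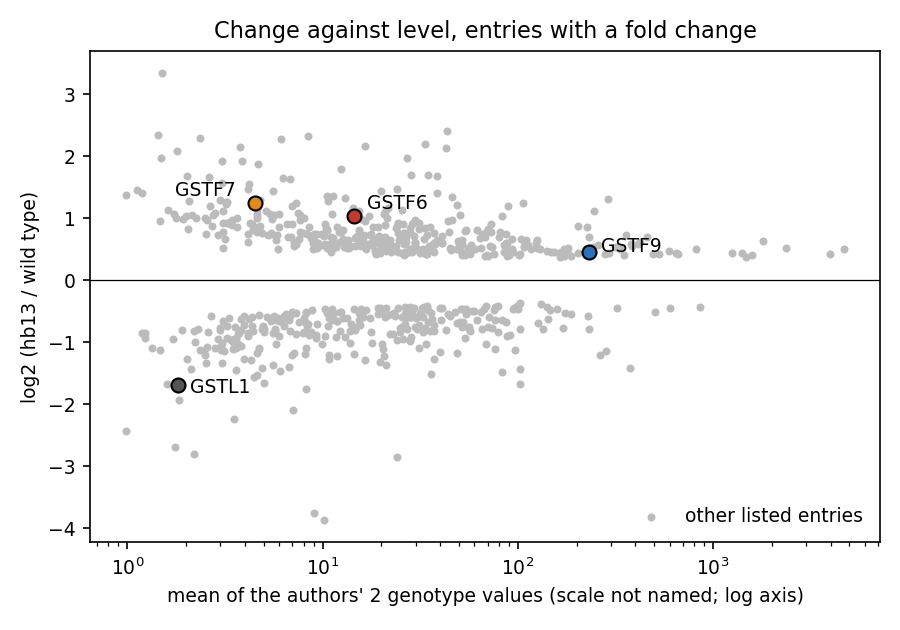
Log2 fold change of hb13 over wild type (y axis) against the mean of both genotype values (x axis, log scale, scale not named) for 706 entries of the authors' deposited table, with the listed glutathione transferases marked. GSTF6 at 1.04 and GSTF7 at 1.25 lie in the upper part of the points at their own level, and the gap around 0 is there because the table lists selected entries only.

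The entries nearest to each gene in both genotype values were sought by Euclidean distance on the log2 scale, with the pair itself left out. Of the other listed glutathione transferases only GSTF9 and GSTL1 could be found, and neither was among the nearest entries. For GSTF6 these were RHA2B (AT2G01150), a RING-type ubiquitin ligase known from abscisic acid signalling, then AT1G19020, and IAA19 (AT3G15540), an auxin-responsive Aux/IAA repressor. RHA2B had 9.83 in the wild type and 20.4 in hb13 in the authors' deposited table, at a distance of 0.084 from GSTF6. AT1G19020 had 8.83 and 19.8 and IAA19 had 9.74 and 21.2 in the authors' deposited table. For GSTF7 the nearest were MAPKKK13 (AT1G07150), annotated as a mitogen-activated protein kinase kinase kinase, then AT2G43470, and AT2G43620, annotated as a chitinase family protein. MAPKKK13 had 2.65 and 6.38 in the authors' deposited table, at a distance of 0.013 from GSTF7. AT2G43470 had 2.77 and 6.81 and AT2G43620 had 2.91 and 6.36 in the authors' deposited table. Likeness here rests on 2 values per gene, 1 for each genotype.

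The rest of the array was not listed. GSTF5 (AT1G02940) and GSTF4 (AT1G02950), next to GSTF6 on the same strand, are not among the 708 entries. Of the 20 annotated genes within 10 genes on either side of the pair, 0 were listed, beside 2.49% of annotated nuclear protein-coding genes. The 20 include some non-coding RNA genes, which that share leaves out. At that share a list of this size can hold 0 entries, so nothing is read from the count. A gene that is not listed has no value here, so no level or change can be given for it. The coding sequence of GSTF5 was 45.5% identical to that of GSTF6 and 45.6% to that of GSTF7, and GSTF4 was 54.6% and 51.9% identical to them. The closest relatives outside the array, GSTF2 and GSTF3, were 76.8% and 77.2% identical to GSTF6, and neither was listed. GSTF2 and GSTF3 were 76.7% and 77.3% identical to GSTF7.

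**Figure D4:**
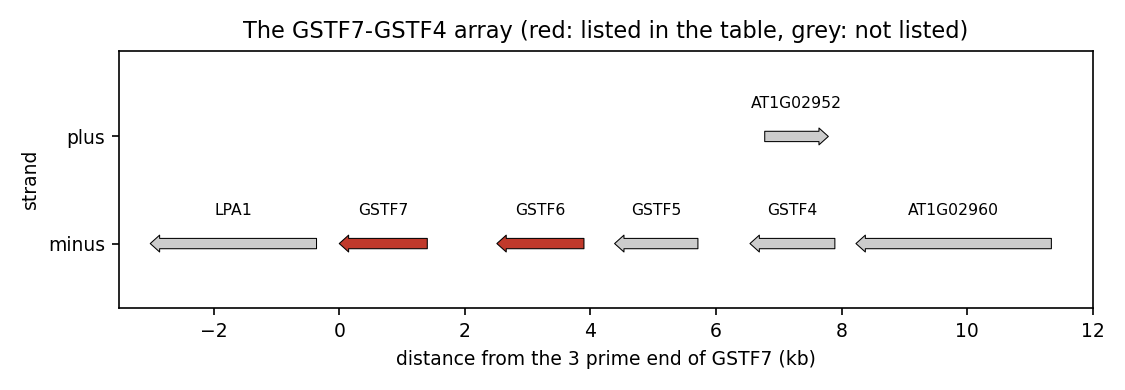
Annotated genes around the pair, with distance from the 3′ end of GSTF7 in kilobases (x axis) and strand (y axis), arrows pointing in the direction of transcription. GSTF7 and GSTF6 (red) were listed, and GSTF5, GSTF4 and the other genes drawn (grey) were not.

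In the table as a whole, pairs of annotated protein-coding neighbours that were both listed numbered 49. These pairs were counted after the values of GSTF6 and GSTF7 were seen. In 35 of the pairs both genes differed in the same direction in the authors' deposited table, 28 with both higher and 7 with both lower, and in 14 they differed in opposite directions. Single entries were higher in 55.6% of cases and lower in 44.4%, which are shares of entries and not of pairs. Some pairs share a gene, as IGMT3 is paired with IGMT1 and with IGMT2, so the 49 are not separate cases. GSTF7 with GSTF6 was one of 4 pairs in which both genes were at least doubled in hb13 in the authors' deposited table. Of single entries 12.4% were at least doubled. The absolute difference between the 2 log2 ratios was 0.21 for this pair, beside a median of 0.24 over the 35 pairs in the authors' deposited table, and it was smaller in 15 of them.

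**Figure D5:**
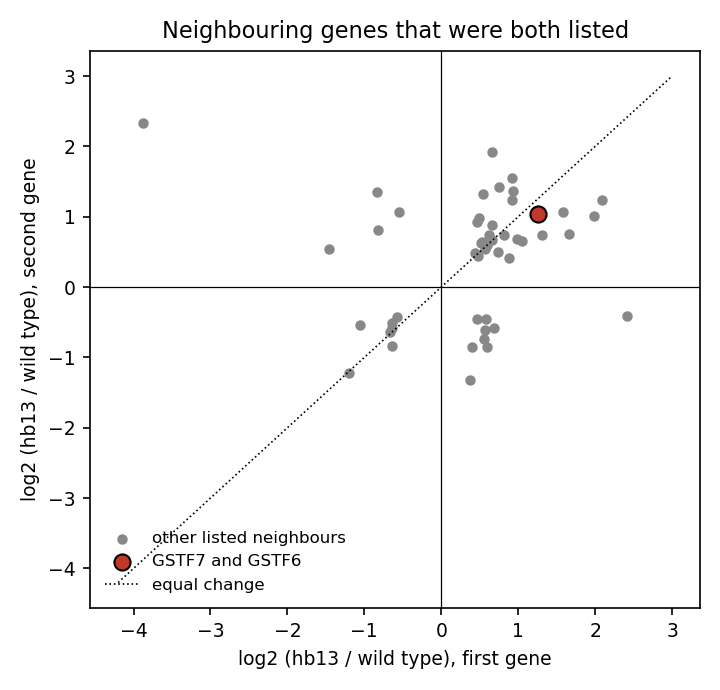
Log2 fold change of hb13 over wild type for the first (x axis) and second (y axis) gene of the 49 pairs of neighbouring protein-coding genes that were both listed in the authors' deposited table, with a dotted line of equal change. GSTF7 and GSTF6 (1.25 and 1.04) lie near the line of equal change, and 14 pairs lie in the quadrants of opposite direction.

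Of the other genes of glutathione metabolism looked at, only GSTF9 and GSTL1 were listed, and their share was not tested. Of 53 glutathione transferase genes 4 were listed, 3 higher and 1 lower, with a median log2 ratio of 0.75 beside 0.45 over all entries that have one, per the authors' deposited table. That median includes GSTF6 and GSTF7, which were chosen on this contrast, and without them it was -0.61 over the 2 remaining genes. Without GSTF6 and GSTF7 the count was 2 of 51 (3.92%), or 2 of 66 (3.03%) with the genes of glutathione synthesis, recycling and glutathione peroxidases, beside 684 of 27444 annotated nuclear protein-coding genes (2.49%), with 1.38% of the annotated genes listed as higher and 1.11% as lower. The annotated genes include some that roots do not express, so these shares have different bases. GSTF9 (AT2G30860), an abundant phi-class enzyme, was the 1 other phi gene listed of 11 (9.09%). Its values were 194 in the wild type and 267 in hb13 per the authors' deposited table (log2 ratio 0.46, q-value 0.00804). GSTL1 (AT5G02780), of the lambda class, whose members act as thiol transferases, was the 1 glutathione transferase that was lower. The GSTL1 values were 2.76 in the wild type and 0.86 in hb13 per the authors' deposited table (log2 ratio -1.68, q-value 0.0483). That q-value is near the upper end of the table, 0.05, and 21 of the 708 entries had a lower mean level, so the ratio rests on a low value of unknown error. None of the 28 tau-class genes was listed. The same held for the 7 genes of glutathione synthesis and recycling and the 8 glutathione peroxidases, so the 3 lists gave 0 entries in either direction. At a share of 2.49% over all annotated genes, lists of this size can hold 0 entries, and nothing is read from these counts.

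Of 7 genes of the camalexin and indole pathway, in which GSTF6 is known to act, 2 were listed (28.6%), 1 higher and 1 lower. Over all lists other than the glutathione transferases the share was 2 of 52 (3.85%), beside 2.49% of all annotated genes. The lists were chosen with earlier results of these data known, and these shares were not tested. CYP79B2 (AT4G39950), the enzyme that turns tryptophan into indole-3-acetaldoxime, had 3.09 in the wild type and 5.18 in hb13 per the authors' deposited table (log2 ratio 0.74, q-value 0.0142). WRKY33 (AT2G38470), a transcription factor that activates camalexin genes, had 33.6 and 23.6 per the authors' deposited table (log2 ratio -0.51, q-value 0.022). CYP79B3, CYP71A12, CYP71A13, PAD3 and GGP1 were not listed. Of 14 genes of salicylic acid and defence, among them PR1, PR2 and PR5, 0 were listed, and of 16 genes of the oxidative and xenobiotic response, among them AOX1A, UGT74E2 and CYP81D8, 0 were listed in either direction. Beside the 2.49% of all annotated genes that were listed, counts of 0 in lists of this size say nothing about these genes.

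The mutated gene and the tissue could not be checked in these values. HB13 is not among the 708 entries, and neither are any of 10 root marker genes, such as SHR, SCR and PLT1, or of 5 shoot marker genes, such as RBCS1A. A gene that did not pass the authors' selection is not in the table at any level, so these 0 counts do not describe its expression.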

How the data were processed

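Polyadenylated RNA was sequenced from 3 wild-type and 3 hb13 root libraries, with directional library preparation and single-end reads of 100 bases, per the labels' protocols. TopHat2 2.0.13, Cufflinks 2.1.1, Cuffdiff and the build TAIR10 are named in the submitters' processing notes, with no role or order. The authors deposited 1 table with a normalized expression signal per genotype, whose scale is not named. For 706 entries the authors deposited a log2 fold change, which matched log2 of hb13 over wild type to within 1.02e-05, and 2 entries at 0 in hb13 have none. The q-value deposited by the authors ran from 0.00246 to 0.05 over the 708 entries. Depth and precision per library are unknown.

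The table holds no value per library, so the form of analysis planned for such a table was used, and values were described with no test of their own. The members and gene lists were chosen with earlier results of these data known. Genes named are the pair, each listed gene of 8 lists with 105 genes (all 105 matched RefSeq by locus), and the 3 entries nearest to each member. Other genes are named as not listed or as neighbours. Sequences came from TAIR10.1, and protein sequences were not used here. The planned description of upstream sequence is not reported here. Identity is from global alignment with gaps counted as differences, and the search for shared stretches was tested on simulated sequences. Alternatives were a q-value of 0.01, log2 fold change of 1, mean values of 1 and 5, a pseudocount of 1, median centring, summed loci and other ranks. Python 3.11.15, pandas 2.3.3, NumPy 2.4.6, Biopython 1.88 and matplotlib 3.10.9 were used.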

Additional observations from a re-analysis of the deposited data

How the results depend on the processing

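Both genes stayed higher in hb13 under every alternative that could be run, but most of these could not have reversed the direction. A pseudocount, the q-value filter and a sum of loci that are both higher keep the sign. Only the subtraction of the median could have changed it. With a pseudocount of 1 the log2 fold change was 0.97 for GSTF6 and 1.004 for GSTF7. Subtracting the median of all entries, a list already selected for change, gave 0.59 and 0.80, and summing both loci gave 1.09 for each. GSTF6 was thus no longer doubled with the pseudocount, and neither gene was after the subtraction. At a q-value of at most 0.01 both were kept with the same values. The level rank of GSTF6 was 461 by the wild-type value and 352 by the hb13 value, and that of GSTF7 was 647 and 523. The rank by size of change was 147 for GSTF6 and 82 for GSTF7 at a mean value of at least 1, 80 for GSTF6 at a mean of at least 5, 80 and 48 among higher entries, and 38 and 35 among entries within a factor of 2 of the gene's own level. Each of these settings compares fewer entries, and a rank falls only where entries with a larger change are left out. At a mean of at least 5, many of the low entries left out had changed more than GSTF6. Relative to the number compared, GSTF6 stood higher among entries of its own level than among all entries, and GSTF7 stood lower. GSTF7 has a mean of 4.48, so it has no rank at a mean of at least 5. The count of lower glutathione transferases fell from 1 to 0 at a q-value of at most 0.01 and to 0 at a mean of at least 5, and the count of higher ones was 2 or 3 throughout.

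No paired analysis was possible because the columns carry no replicate. Runs without each replicate and count-based fits were not run either, as the table has 1 value per genotype. The unknown depth leaves values without an error, low ones such as those of GSTF7, CYP79B2 and GSTL1 included.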
